A study of Mus musculus with 30 samples.

Results

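The EGF receptor Egfr, its partner receptors Erbb2 and Erbb3 and the ligands Hbegf, Areg, Ereg, Btc and Tgfa were followed in mouse embryonic fibroblasts (MEFs) under cellular stress. These 8 genes were picked by name from the 21689 genes on the array, and 20 probes carried their names. The study compared the stress response of wild type MEFs with that of MEFs in which the stress-activated kinase p38α was inhibited or absent. Every group had 2 arrays, and 15 groups gave 30 arrays.

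All cells were immortalised MEFs in exponential growth. In 5 wild type groups the stress was given alone: anisomycin at 25 ng/ml for 45 min, TNFα at 100 ng/ml for 45 min, or NaCl at 100 mM for 45 min, 2 h or 8 h. In 6 further wild type groups the p38 inhibitor SB203580 was given, either alone or before each of the same stresses. The treatment protocol gives SB203580 as 10 µM for 30 min before the stress, whereas the sample titles read 10 mM and 2 h. The last 4 groups were p38α-/- MEFs (Mapk14 knock out), which were left untreated or were exposed to anisomycin for 45 min, TNFα for 45 min or NaCl for 2 h at those doses. On every array the sample carried Cy5 and the reference, RNA of 2 untreated wild type cultures put together, carried Cy3. Dyes were not swapped, so that a dye bias of a probe has the same sign on all arrays. This pool is the only untreated wild type control, and tests against it do not include how much untreated cultures vary. No unstressed group was labelled with 8 h, so at 8 h NaCl and time in culture were not tested apart. No lineage of the knock out cells, such as a single clone, was given in the sources used here.

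Values below are log2 ratios of sample to pool, in which 1 is a doubling and 0 is the level of the pool. Tests are limma's on the mean over a gene's probes, adjusted by Benjamini-Hochberg over all genes tested, and a gene is called at an adjusted p under 0.05. In whole cultures, fewer cells that express a gene and less RNA per cell cannot be told apart. Mapk14 itself, in the 6 p38α-/- arrays on which it was kept, was between -2.24 and -0.94, below all 16 wild type arrays on which it was kept (0.052 to 1.31). Replicate arrays correlated at r = 0.407 to 0.672 across genes. The scanner software marked 6.78% to 44.8% of the spots of an array as outliers, and those spots were left out. All 10 fibroblast markers examined were well above background in both dyes on all arrays, but so were all 8 epithelial and all 6 macrophage and blood markers and 3 of 5 endothelial ones, so that this flag does not tell the cell types apart.

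The EGF receptor is a receptor tyrosine kinase of the cell surface. Its ligands are made as membrane-anchored precursors, which proteases of the ADAM family cut to release the active growth factor. On binding, the receptor pairs with itself or with another ErbB protein and passes the signal to the Ras, ERK and PI3 kinase pathways. ErbB2 has no known ligand of its own and acts as the preferred partner, and ErbB3 has little kinase activity. Heparin-binding EGF-like growth factor, amphiregulin, epiregulin, betacellulin and TGFα are the ligands studied here, and several of them are known as immediate response genes of stressed or wounded cells. Signalling is limited by inhibitors that it induces, among them Errfi1 (Mig-6), the Sprouty proteins, Lrig1 and the SOCS family.

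The promoters of the 3 members that passed the test at the gene level in at least 1 comparison, Egfr, Erbb2 and Btc, are shown because their transcripts moved in different directions. Each window is from RefSeq (GRCm38.p6), runs from 250 bases before to 50 bases after the start, and is written 5′ to 3′ on the gene's own strand. It lies at chr11:16751953-16752252 on the plus strand for Egfr, at chr11:98412234-98412533 on the plus strand for Erbb2 and at chr5:91402945-91403244 on the minus strand for Btc. Capitals mark a match to one of 5 motifs searched on both strands.
Egfr: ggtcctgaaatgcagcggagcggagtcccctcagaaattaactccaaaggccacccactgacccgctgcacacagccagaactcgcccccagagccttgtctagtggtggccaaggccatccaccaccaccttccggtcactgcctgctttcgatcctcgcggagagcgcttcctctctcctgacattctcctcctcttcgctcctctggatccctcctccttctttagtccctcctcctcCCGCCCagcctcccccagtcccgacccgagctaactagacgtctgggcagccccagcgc
Erbb2: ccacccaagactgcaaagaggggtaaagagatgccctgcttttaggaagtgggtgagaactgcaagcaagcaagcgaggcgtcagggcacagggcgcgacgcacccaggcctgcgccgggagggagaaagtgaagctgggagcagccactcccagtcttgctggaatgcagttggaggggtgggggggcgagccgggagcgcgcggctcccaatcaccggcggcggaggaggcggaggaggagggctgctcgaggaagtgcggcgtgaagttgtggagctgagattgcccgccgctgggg
Btc: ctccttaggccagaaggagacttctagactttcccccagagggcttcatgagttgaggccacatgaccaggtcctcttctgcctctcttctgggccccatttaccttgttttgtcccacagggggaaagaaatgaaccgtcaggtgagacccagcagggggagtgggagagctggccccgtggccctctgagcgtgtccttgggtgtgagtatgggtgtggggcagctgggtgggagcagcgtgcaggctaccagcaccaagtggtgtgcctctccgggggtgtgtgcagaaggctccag

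The motifs were the GC box GGGCGG, the AP-1 site TGANTCA, the CRE-type site TGACGT, the core of the osmotic response element TGGAAA and the TATA box TATAAA. Egfr held 1 match, a GC box on the minus strand from 9 to 4 bases before the start, and Erbb2 and Btc held none. Among 32851 promoters of this length, 35.66% held the GC box, 7.808% the AP-1 site, 7.513% the CRE-type site, 21.43% the osmotic core and 13.62% the TATA box. The windows of Egfr, Erbb2 and Btc had a GC content of 62.3%, 66% and 60.3%, against a median of 52.67% over all promoters. A promoter was found for 5 of the 8 members. The window of Areg, at chr5:91139349-91139648 on the plus strand, held the most matches, with 2 GC boxes, a TATA box and a CRE-type site on either strand, these last a pair that overlap each other.
Areg: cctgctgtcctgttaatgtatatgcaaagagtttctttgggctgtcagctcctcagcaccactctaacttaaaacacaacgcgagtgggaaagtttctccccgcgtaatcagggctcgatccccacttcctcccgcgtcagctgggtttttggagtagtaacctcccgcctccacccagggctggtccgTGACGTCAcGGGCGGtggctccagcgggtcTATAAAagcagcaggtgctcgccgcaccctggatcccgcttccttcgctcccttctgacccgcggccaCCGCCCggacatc

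Egfr was the member that moved most. It was raised after 8 h in NaCl, by 2.49-fold over the pool at the gene level. That mean lacks 1 of its probes, which was outlier-flagged on both arrays. On the mean of its probes Egfr was also higher in p38α-/- MEFs than in the pool whether or not they were stressed. Some single probes were slightly below the pool in some of these groups. Directly against wild type MEFs, Egfr passed in the main fit only with anisomycin, a call that some alternatives and single arrays undo. With SB203580 given first, its level at 8 h was lower by 0.86 on the log2 scale at the gene level, a call that several alternatives and single arrays undo, and the rise over SB203580 alone was not shown to differ from that in wild type MEFs. Erbb2 was below the pool at 8 h. Btc was above the pool in untreated and NaCl-treated p38α-/- MEFs on the mean of its probes, which rests on 1 probe of 2, and no direct difference from wild type MEFs passed. At the gene level, for Erbb3, Hbegf, Areg, Ereg and Tgfa no comparison passed the test.

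Against the pool, 11 of 97 tests of members passed, 9 upward and 2 downward, and 19 had an unadjusted p under 0.05. The share of all genes called against the pool was 12% for anisomycin, 11% for TNFα, and 9.88%, 9.92% and 22.2% for NaCl at 45 min, 2 h and 8 h. It was 26.6% for SB203580 alone, and with SB203580 it was 11.7% for anisomycin, 9.52% for TNFα, and 16.8%, 17.1% and 21.2% for the NaCl times. Among p38α-/- groups it was 15% untreated, 12.4% with anisomycin, 7.61% with TNFα and 18% with NaCl. The 11 calls of 97 tests are thus close to these shares, and the results on the members lie in which genes were called and how far they moved rather than in their number.

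**Figure D1:**
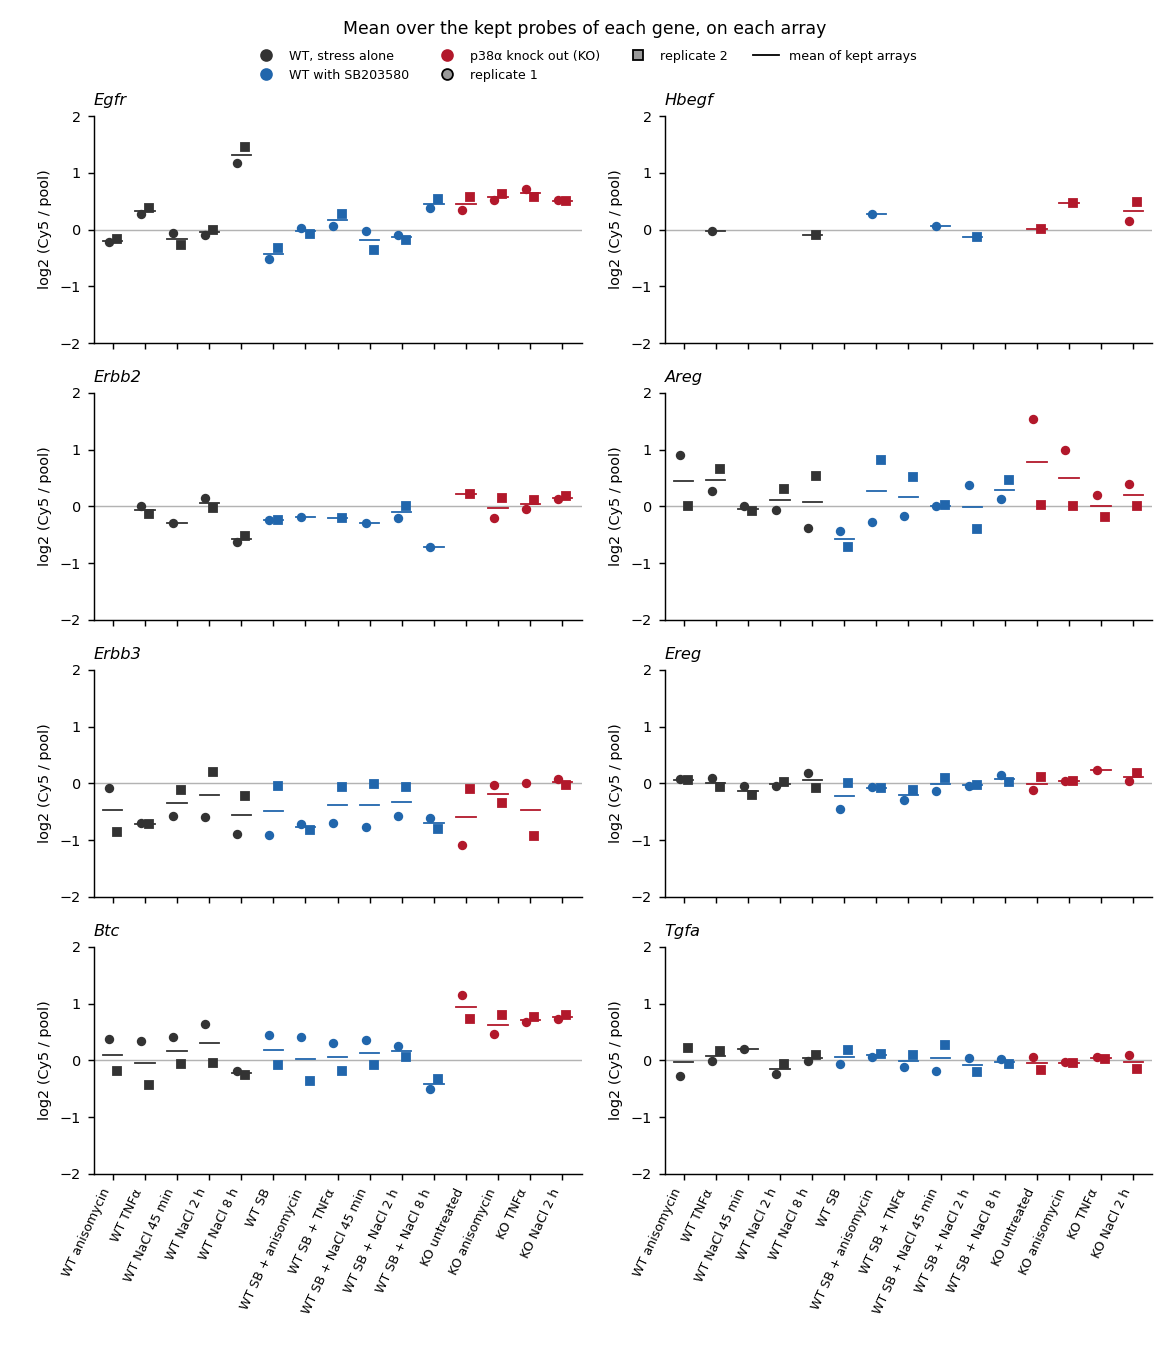
Log2 ratio of each of the 8 genes to the wild type pool on each array, as the mean over the gene's kept probes, with circles for replicate 1, squares for replicate 2 and a bar for the mean of the kept arrays of a group. The Egfr points of NaCl at 8 h stand highest in their panel, and the Btc bars of the p38α-/- MEFs (KO), at 0.63 to 0.94, lie above those of all wild type groups. A missing point is an array on which no probe of the gene was kept.

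The 5 Egfr probes did not behave alike, so they are given one by one. The RefSeq accessions NM_207655 and NM_007912 are each named for a pair of them, and RefSeq lists both as transcripts of Egfr. The fifth is named for a cDNA, AK049452. Fits of single probes were added after the gene-level results were seen.

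The probe A_52_P106259 (NM_207655), well above background in both dyes on all 30 arrays, gave the clearest time course. In NaCl it was 0.47 and 0.26 at 45 min (the latter outlier-flagged), 0.46 and 0.24 at 2 h, and 1.68 and 2.12 at 8 h. With SB203580 before NaCl it was 0.70 and 0.43 at 45 min (the latter outlier-flagged), 0.22 and 0.28 at 2 h, and 0.99 and 1.07 at 8 h. Both arrays at 8 h in NaCl lay above all others, and both at 8 h with SB203580 lay above the NaCl arrays of the earlier times. With SB203580 alone it was 0.37 and -0.14. With anisomycin it was 0.52 and 0.34, and with SB203580 before anisomycin 0.52 and 0.46. With TNFα it was 0.39 and 0.27 (the latter outlier-flagged), and with SB203580 before TNFα 0.36 (outlier-flagged) and 0.27. These short stresses gave overlapping or adjoining values with and without the inhibitor.

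In p38α-/- MEFs the same probe was 1.04 and 0.98 untreated, 0.80 and 1.26 with anisomycin, 0.80 and 0.81 with TNFα, and 1.06 and 0.98 with NaCl at 2 h. All 8 of these values lay above those of the wild type groups under anisomycin, TNFα and NaCl at 2 h, which did not overlap with them. The level was already at about 1 without stress. On this probe the differences of the means from untreated p38α-/- MEFs were 0.015 for anisomycin, -0.21 for TNFα and 0.0080 for NaCl.

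The other probe for that accession, A_52_P674338, showed the same rise. In NaCl it was 0.27 and -0.01 at 45 min, 0.46 and -0.02 at 2 h, and 1.65 and 2.10 at 8 h. After SB203580 the 8 h values were 0.78 and 0.90, and with SB203580 alone they were 0.20 and -0.64. Again the 8 h arrays stood apart, with those of NaCl alone above those with the inhibitor. In p38α-/- MEFs it was 0.60 (outlier-flagged) and 0.48 untreated, 0.48 and 0.91 with anisomycin, 0.37 and 0.38 with TNFα, and 1.02 and 0.44 with NaCl. These overlapped with the highest of the wild type arrays of the short stresses.

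The probe A_51_P392242, for NM_007912, was above 0 on all 30 arrays, from 0.11 to 1.02 with a median of 0.44. At 8 h in NaCl it was 0.49 and 0.64, and at 2 h 0.34 and 0.19. Its 8 h value thus lay within the range of other groups, and whether its response differs from that of the NM_207655 probes was not tested. The second probe for NM_007912, A_52_P56471, was outlier-flagged on 12 arrays and ran from -0.47 to 0.63. The probe for the cDNA, A_52_P5855, was dim, with Cy5 well above background on only 13 of 30 arrays, and ranged from -3.23 to 1.74. It was 0.89 and 0.95 at 8 h in NaCl and -3.23 and -1.02 with SB203580 alone, where the sample channel was not well above background on either array and the level was at least 2.91-fold lower than in the pool.

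**Figure D2:**
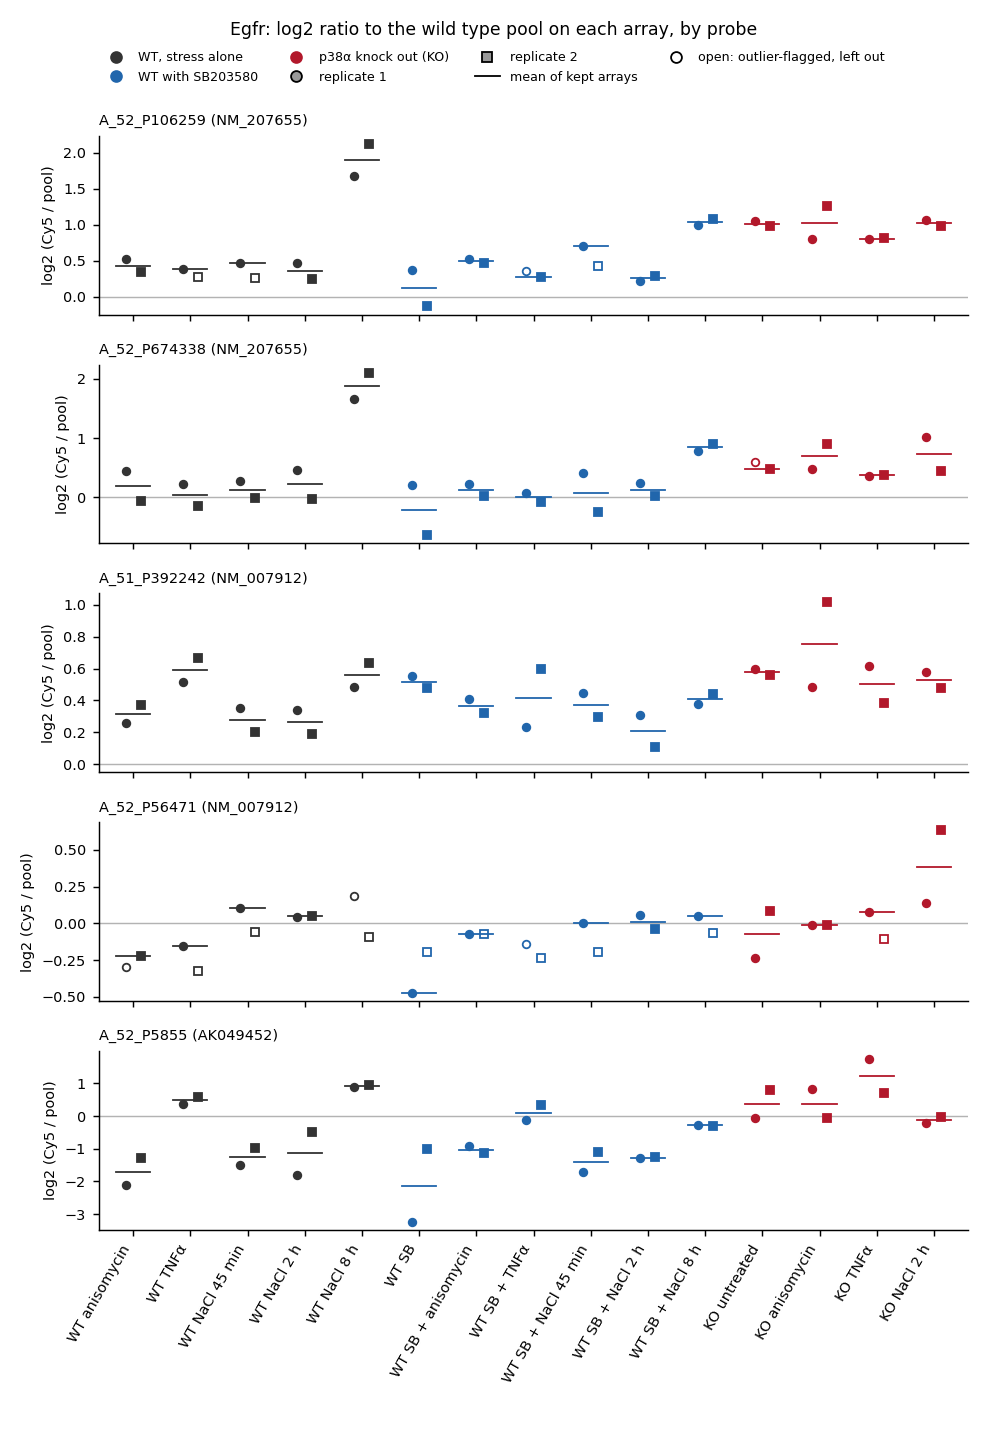
Log2 ratio of each of the 5 Egfr probes to the wild type pool on each of the 30 arrays, each panel with its own vertical range, circles for replicate 1, squares for replicate 2, open symbols for outlier-flagged spots that were left out and bars for the mean of kept arrays. The 8 h NaCl arrays stand highest on both NM_207655 probes, at 1.65 to 2.12, but not on A_51_P392242, where they are at 0.49 and 0.64.

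On the mean of its kept probes, Egfr passed the test in 15 of 48 comparisons. Against the pool it was 1.31 (SE 0.096, n = 2) at 8 h in NaCl, with an adjusted p of 6.33e-08 in limma. This mean leaves out A_52_P56471, outlier-flagged on both arrays. Over the 4 arrays at 8 h with and without SB203580, that probe lay between -0.09 and 0.18, flagged spots included. Gene-level differences from 8 h in NaCl can thus compare different sets of probes. With SB203580 before 8 h of NaCl Egfr was 0.46 (limma adjusted p = 0.0024). In p38α-/- MEFs it was 0.46 untreated (limma adjusted p = 0.0041), 0.57 with anisomycin (0.00092), 0.65 with TNFα (0.00046) and 0.51 with NaCl (0.0015). These 4 values were close to one another. After TNFα in wild type MEFs it was 0.32 (limma adjusted p = 0.038). The sign of the remaining call, -0.42 with SB203580 alone, was set by the dim probe A_52_P5855: on the brightest probe the value was 0.12.

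Fitted one by one, 13.4% of all probes were called against the pool for anisomycin, 12.5% for NaCl at 2 h, 20.6% for NaCl at 8 h and 21% for SB203580 before NaCl at 8 h. Among p38α-/- groups it was 15.4% untreated, 13.1% with anisomycin, 8.54% with TNFα and 19.9% with NaCl. On A_52_P106259 the 8 h value was 1.90 (SE 0.13, limma adjusted p = 4.6e-07), and on A_52_P674338 it was 1.88 (limma adjusted p = 7.3e-06). A_51_P392242 gave 0.56 (limma adjusted p = 0.0012) there, but it also gave 0.52 with SB203580 alone, without stress (limma adjusted p = 0.0025). The p38α-/- groups on A_52_P106259 were at 1.01 (untreated, limma adjusted p = 3.0e-04), 0.81 (TNFα, limma adjusted p = 0.0020), 1.03 (anisomycin) and 1.02 (NaCl). A_52_P674338 and A_51_P392242 were above the pool on all 8 p38α-/- arrays, but A_52_P674338 did not pass under TNFα (0.37, limma adjusted p = 0.322). A_52_P56471 did not pass untreated (-0.07), under anisomycin (-0.01) or under NaCl (0.39). The dim A_52_P5855 passed in no p38α-/- group (untreated 0.36, TNFα 1.23, anisomycin 0.37, NaCl -0.12).

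Across the times of NaCl and between the short stresses, 5 of 51 tests of members passed, 4 upward and 1 downward, and 7 had an unadjusted p under 0.05. Of all genes, 0.054% were called from 45 min to 2 h, 7.81% from 2 h to 8 h and 7.53% from 45 min to 8 h. With SB203580 these shares were 0.343%, 7.32% and 6.55%. Between the short stresses 0.183% were called for anisomycin against TNFα, 0.289% for anisomycin against NaCl and 0.235% for TNFα against NaCl. The pool cancels in these differences. All 4 upward calls were of Egfr. From 2 h to 8 h in NaCl it rose by 1.37 (SE 0.14, limma adjusted p = 1.2e-05), and from 45 min to 8 h by 1.48 (limma adjusted p = 5.7e-06). With SB203580 the rises were 0.59 (limma adjusted p = 0.0109) and 0.65 (limma adjusted p = 0.0064). The former did not pass without SB203580 NaCl 2 h replicate 2 (0.55) or 8 h replicate 2 (0.52). It also did not with the series matrix values (0.36, limma adjusted p = 0.164). The latter did not pass without SB203580 NaCl 45 min replicate 2 (0.49) or 8 h replicate 2 (0.58). It also did not with the normexp background correction (0.37, limma adjusted p = 0.062). Neither passed on spots well above background (0.53 and 0.47).

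On the single probes, 7.77% of which were called from 2 h to 8 h and 6.71% from 45 min to 8 h, A_52_P106259 rose by 1.55 from 2 h to 8 h (SE 0.19, limma adjusted p = 2.3e-04) and A_52_P674338 by 1.66 (limma adjusted p = 0.0019). A_51_P392242 rose by 0.30 over that time, which did not pass (limma adjusted p = 0.337). With SB203580, where 7.22% of probes were called from 2 h to 8 h, A_52_P106259 rose by 0.78 (limma adjusted p = 0.020) and A_52_P674338 by 0.71, which did not pass (limma adjusted p = 0.192). The arrays were scanned in 4 batches, the first with replicate 1 of the wild type groups and the second with replicate 2 of the wild type groups and replicate 1 of the p38α-/- groups. Within these batches the rise of A_52_P106259 from 2 h to 8 h was 1.22 and 1.87, and that of A_52_P674338 was 1.19 and 2.12.

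**Figure D3:**
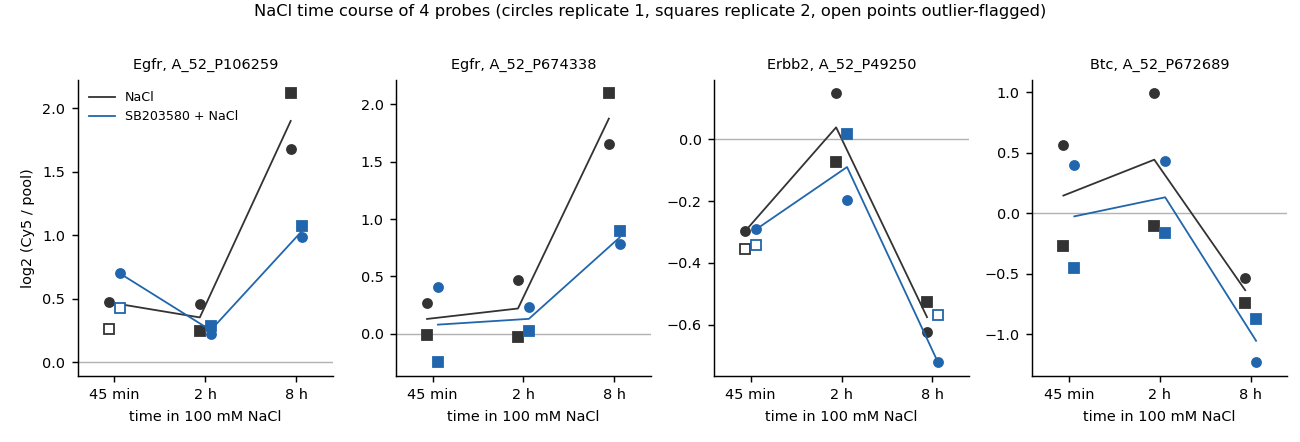
Log2 ratio to the wild type pool of 2 Egfr probes, 1 Erbb2 probe and 1 Btc probe at 45 min, 2 h and 8 h in 100 mM NaCl, without (black) and with (blue) SB203580, each panel with its own vertical range. Lines join the means of the kept arrays, and open symbols are outlier-flagged spots. Both Egfr probes rise at 8 h, to means of 1.90 and 1.88 without SB203580 and of 1.03 and 0.84 with it, whereas the Erbb2 probe falls.

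Whether p38 inhibition or loss changed the members' level under a stress was asked directly, stress by stress. Of 49 such tests of members, 2 passed, 1 upward and 1 downward, and 5 had an unadjusted p under 0.05. The shares of all genes called were low: 0.0204% for SB203580 with anisomycin, 0% for TNFα and for NaCl at 45 min and 2 h, and 0.206% for NaCl at 8 h. For p38α-/- against wild type MEFs they were 1.27% with anisomycin, 0.414% with TNFα and 0.697% with NaCl at 2 h. Both member calls were of Egfr.

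With SB203580 Egfr at 8 h in NaCl was 1.81-fold lower at the gene level, a difference of -0.86 (SE 0.14, limma adjusted p = 0.0111). The means differ in their probes, since A_52_P56471 was kept on 1 array with SB203580 and on none without it. On A_52_P106259 the difference was -0.87 (limma adjusted p = 0.117) and on A_52_P674338 it was -1.04 (limma adjusted p = 0.356), neither of which passed over all probes, of which 0.164% did. Within the scanning batches the differences were -0.69 and -1.05 on A_52_P106259, and -0.87 and -1.20 on A_52_P674338. A_51_P392242 differed by -0.15. At 45 min and 2 h the gene-level differences were -0.03 and -0.08. The gene-level call at 8 h did not pass without wild type NaCl 8 h replicate 2 (-0.72, limma adjusted p = 0.211), nor without either of the SB203580 NaCl 8 h arrays (-0.78 and -0.93), nor with the series matrix values (-0.67, limma adjusted p = 0.077), on the brightest probe (limma adjusted p = 0.069) or on spots well above background (-0.64, limma adjusted p = 0.297).

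In p38α-/- MEFs Egfr was 1.70-fold higher than in wild type MEFs under anisomycin, a difference of 0.77 (SE 0.14, limma adjusted p = 0.0076). Under TNFα the difference was 0.33 (limma adjusted p = 0.533). Under NaCl at 2 h it was 0.56 (limma adjusted p = 0.0676), and with the replicate number as a block this passed (limma adjusted p = 0.0467). The anisomycin value takes in 2.07 on the dim A_52_P5855, while A_52_P106259, A_52_P674338 and A_51_P392242 gave 0.60, 0.51 and 0.44, and none of these 4 passed alone (limma adjusted p = 0.093, 0.179, 0.523 and 0.240 in that order), although A_52_P5855 did with the replicate block (0.0233). On spots well above background it was 0.54 (limma adjusted p = 0.187). Under NaCl A_52_P106259 gave 0.67 (limma adjusted p = 0.149). In the only scanning batch that held both genotypes, 1 array against 1, A_52_P106259 was higher in the p38α-/- MEFs by 0.46 under anisomycin, 0.54 under TNFα (1 spot outlier-flagged) and 0.81 under NaCl. In that batch A_52_P674338 was higher by 0.55, 0.52 and 1.04, and A_51_P392242 differed by 0.11, -0.05 and 0.39. The anisomycin call did not pass without wild type anisomycin replicate 1 (0.74, limma adjusted p = 0.098) or without p38α-/- anisomycin replicate 2 (0.71, limma adjusted p = 0.082), and on the brightest probe it did not pass either.

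Within the SB203580-treated and p38α-/- cells, which have an unstressed group of their own, 1 of 48 tests of members passed and 5 had an unadjusted p under 0.05. Of all genes, 0.014% were called for anisomycin over SB203580 alone, 0.0983% for TNFα, and 0.0435%, 2.87% and 7.78% for NaCl at 45 min, 2 h and 8 h. Over untreated p38α-/- MEFs they were 0.0847% for anisomycin, 0.078% for TNFα and 1.08% for NaCl. The call was of Egfr, which was higher by 0.88 at 8 h of NaCl with SB203580 over SB203580 alone (SE 0.14, limma adjusted p = 0.00062). A_52_P106259 rose there by 0.91 (limma adjusted p = 0.0077) and A_52_P674338 by 1.06 (limma adjusted p = 0.036), where 7.07% of all probes were called, and A_51_P392242 gave -0.11. The gene-level value takes in the dim A_52_P5855, at 1.84 over an SB203580 level that was not well above background, and with the series matrix values it did not pass (0.44, limma adjusted p = 0.066). Within batches A_52_P106259 rose by 0.62 and 1.21. No unstressed group of this arm was labelled with 8 h, so NaCl and time in culture or inhibitor were not tested apart. The same holds for the difference of inductions at 8 h.

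For the difference of inductions, that is, the stress effect within an arm less the effect in wild type MEFs, 0 of 47 tests of members passed in limma and 4 had an unadjusted p under 0.05. The shares of all genes called were 0.583% for anisomycin with SB203580, 0.651% for TNFα, and 0.0936%, 1.65% and 0.295% for the NaCl times. For p38α-/- MEFs they were 0.542% with anisomycin, 0.45% with TNFα and 0% with NaCl. For Egfr at 8 h of NaCl the difference of inductions with SB203580 was -0.43 (SE 0.17, limma adjusted p = 0.209). On A_52_P106259 it was -0.98 (limma adjusted p = 0.064), and 0.041 with the replicate block. On A_52_P674338 it was -0.82 and on A_51_P392242 -0.67 (limma adjusted p = 0.262 and 0.095), whereas on the dim A_52_P5855, whose baseline with SB203580 alone was not well above background, it was 0.92. The gene-level value averages these opposite signs, and none of these 4 probes passed without the block.

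Erbb2 was measured by 2 probes, of which A_51_P216179 was outlier-flagged on 28 of 30 arrays. The values therefore rest mainly on A_52_P49250, flagged on 8. In NaCl it was -0.30 and -0.36 at 45 min (the latter outlier-flagged), 0.15 and -0.07 at 2 h and -0.62 and -0.53 at 8 h, and with SB203580 it was -0.72 and -0.57 at 8 h, the latter outlier-flagged. The 4 arrays at 8 h lay below those at 2 h. At the gene level Erbb2 was -0.58 at 8 h (SE 0.10, n = 2, limma adjusted p = 0.0018), which is 1.49-fold below the pool. From 2 h to 8 h it fell by 0.64 on the log2 scale (limma adjusted p = 0.0189). On A_52_P49250 alone the change was -0.61 and did not pass (limma adjusted p = 0.104, or 0.056 with the replicate block). The gene-level change takes in A_51_P216179 on 1 of the 2 h arrays. Over the 4 arrays at 8 h with and without SB203580, all flagged, that probe ran from -0.26 to 0.01. On A_52_P49250 the change from 2 h within batches was -0.77 and -0.46, and from 45 min it was only -0.33 and -0.17, since the 45 min arrays lay below those at 2 h. With outlier spots kept, the gene-level change from 2 h to 8 h was -0.31 (limma adjusted p = 0.078). That change did not pass without NaCl 2 h replicate 1 or without either NaCl 8 h array (-0.56, -0.59 and -0.69). In p38α-/- MEFs A_52_P49250 ran from -0.19 to 0.53. Erbb2 could be tested in 14 of 48 comparisons, the others having an array with no kept probe.

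Erbb3 had 5 probes, and the mean over them passed no test in any of 48 comparisons (lowest limma adjusted p = 0.093). The probe A_51_P488243 was below 0 on all 30 arrays, from -2.73 to -0.71, and fitted alone it was called below the pool in the 3 groups in which both arrays were kept, at -2.10 with TNFα, -2.29 with SB203580 and anisomycin and -2.18 with SB203580 and 8 h of NaCl, while the other 4 ranged from -0.77 to 0.35. The low probe was outlier-flagged on 12 arrays, and the gene's mean was lower on arrays where it was kept, so that the spread between replicates in the plot of the 8 genes follows that flag in most groups. On this probe, flagged spots included, the NaCl values were -1.43 and -1.61 at 2 h and -2.73 and -2.65 at 8 h, and with SB203580 they were -1.29 and -1.58 at 2 h and -2.26 and -2.10 at 8 h. The 8 h arrays lay below the 2 h arrays in both courses, a difference that was not tested because replicate 2 was flagged in 3 of these 4 groups.

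Among the ligands, betacellulin (Btc) had the most distinct pattern. The probe A_52_P672689 was 2.05 and 1.32 in untreated p38α-/- MEFs, 1.10 and 1.34 with anisomycin, 1.17 and 1.29 with TNFα, and 1.19 and 1.32 with NaCl. These 8 values lay above those of all wild type arrays, where replicate 1 was mostly above 0 and replicate 2 mostly below. At 8 h in NaCl the wild type values were -0.53 and -0.74, and with SB203580 they were -1.23 and -0.88, where the sample channel was not well above background and the level was at least 1.11-fold below the pool. The probe was well above background in Cy5 on 22 of 30 arrays. The brighter probe A_51_P138429 ran only from -0.17 to 0.49 and was above 0 on 29 arrays, so that the probes disagree on the size of the change.

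At the gene level Btc was 0.94 in untreated p38α-/- MEFs (SE 0.22, n = 2, limma adjusted p = 0.0076) and 0.76 with NaCl (limma adjusted p = 0.022). With anisomycin it was 0.63 (limma adjusted p = 0.0675) and with TNFα 0.72 (limma adjusted p = 0.0537), and both passed with the replicate block (0.0061 and 0.0037), as did -0.42 at 8 h of NaCl with SB203580 (0.038, against 0.195 without the block). Directly against wild type MEFs no difference passed: 0.54 with anisomycin, 0.77 with TNFα and 0.46 with NaCl (limma adjusted p = 0.514, 0.518 and 0.603). On A_52_P672689, the p38α-/- MEFs were above the wild type ones within the shared scanning batch by 1.73 with anisomycin, 1.60 with TNFα and 1.29 with NaCl. With the replicate block the difference under anisomycin passed on this probe alone (1.24, limma adjusted p = 0.0462, against 0.362 without the block). On the brighter probe alone the p38α-/- groups were at 0.05 to 0.27 and none was called, whereas wild type MEFs were called above the pool with SB203580 alone (0.32, limma adjusted p = 0.025) and with SB203580 and 45 min of NaCl (0.30, limma adjusted p = 0.044). The calls did not pass without p38α-/- untreated replicate 1 (0.73) or without either p38α-/- NaCl array (0.80 and 0.73).

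Amphiregulin (Areg) was near the limit of detection, with both dyes well above background on 9 of 30 arrays. Its values ran from -0.71 to 1.55. Untreated p38α-/- MEFs gave 1.55 and 0.03, and wild type MEFs with anisomycin gave 0.90 and -0.00, so that the arrays of a group differed as much as the groups did. No comparison passed (lowest limma adjusted p = 0.124). Epiregulin (Ereg) was detected in both dyes on all arrays by both its probes and stayed between -0.21 and 0.34 on one and between -0.69 and 0.25 on the other, with no call in 44 comparisons (lowest limma adjusted p = 0.111).

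The heparin-binding ligand Hbegf had 1 probe, outlier-flagged on 21 of 30 arrays, and could be tested in 1 comparison. Its values lay between -0.40 and 0.50 with flagged spots included. Wild type MEFs with anisomycin gave 0.50 and 0.09, both flagged, and p38α-/- MEFs with NaCl gave 0.16 and 0.49, both kept (limma adjusted p = 0.215). Tgfa had a probe flagged on 22 arrays (-0.35 to 0.23) and another at -0.48 to 0.27, with no call in 41 comparisons (lowest limma adjusted p = 0.447).

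**Figure D4:**
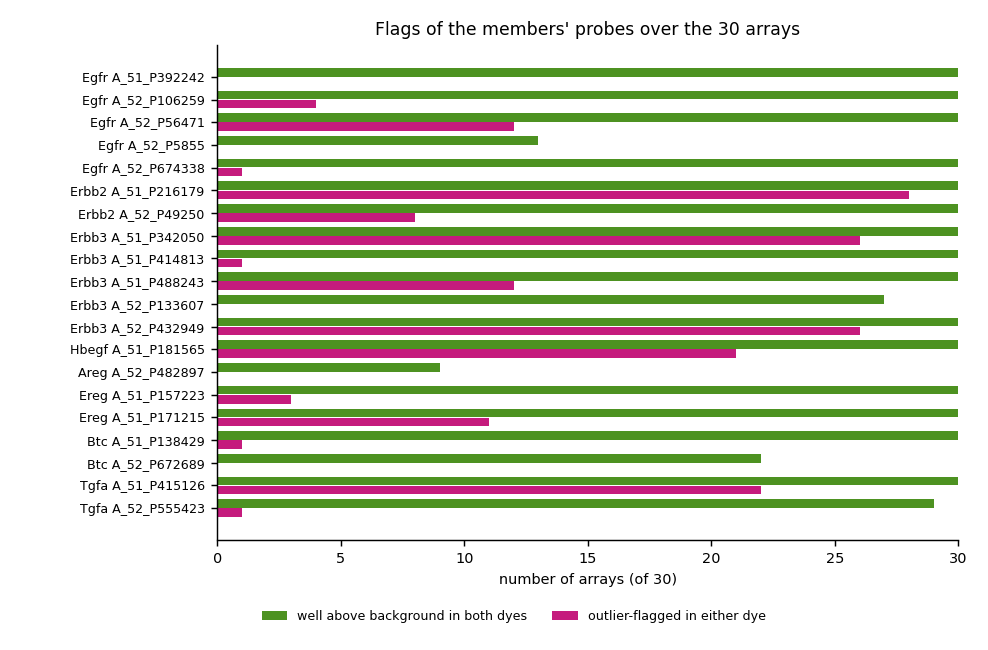
Number of the 30 arrays on which each of the 20 probes was well above background in both dyes (green) and outlier-flagged in either dye (pink). Hbegf, 1 Erbb2 probe, 1 Tgfa probe and 2 Erbb3 probes were flagged on more than 20 arrays, and the Areg probe was detected on 9.

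Of 6 further receptors and ligands of the family on the array, Erbb4, Nrg1 and Epgn were called in no comparison (lowest limma adjusted p = 0.274, 0.0677 and 0.321). Egf was called once, at -0.52 in p38α-/- MEFs with NaCl (limma adjusted p = 0.046). Nrg3, named after its values were seen, was called in 3 of the NaCl groups at 0.30 to 0.36. In the list of 11 genes for ligand processing, Adam17, the main sheddase of Hbegf, Areg, Ereg and Tgfa, was not called in any of the 31 comparisons in which it was measured (lowest limma adjusted p = 0.459). At 8 h in NaCl 3 of the 8 tested genes of this list were higher than the pool and 1 was lower, with a median of 0.10 against 0.0024 over all genes, of which 22.2% were called there. Counts in the other wild type stresses were 0 up and 1 down of 6 for anisomycin, 1 and 1 of 5 for TNFα, 0 and 1 of 4 for NaCl at 45 min, and 0 and 0 of 8 at 2 h. The shares of all genes called in these groups were 12%, 11%, 9.88% and 9.92%.

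Furin, a proprotein convertase that activates ADAM proteases, was 0.93 and 1.49 at 8 h in NaCl, against 0.11 and -0.05 at 2 h. It rose by 1.18 between these times (SE 0.26, limma adjusted p = 0.012), which did not pass without NaCl 2 h replicate 1 (1.26) or 2 (1.10) or NaCl 8 h replicate 2 (0.90), and with SB203580 it was 0.33 and 0.74 at 8 h. The difference with SB203580 at 8 h, -0.67, had an unadjusted p of 0.022 in limma and did not pass after adjustment. Adam9, a membrane metalloprotease, was 0.84 and 1.27 at 8 h (limma adjusted p = 0.012), which did not pass without replicate 2. It was also 0.96 at 2 h, 0.91 with SB203580 alone, each on the 1 array kept, and 1.25 and 0.38 in untreated p38α-/- MEFs. Rhbdf2, the iRhom that carries ADAM17 to the cell surface, was 1.84 and 1.32 with TNFα and 1.04 and 1.76 at 8 h in NaCl on its unflagged probe. That probe was above the pool without stress too, at 1.58 and 0.81 with SB203580 alone and 1.50 and 1.08 in untreated p38α-/- MEFs, values that overlap with those under stress.

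Of the 20 adaptors and kinases downstream of the receptor, 1 was up and 2 were down of 13 tested for anisomycin, 1 and 2 of 14 for TNFα, 1 and 2 of 11 for NaCl at 45 min, 4 and 2 of 17 at 2 h, and 4 and 3 of 16 at 8 h. The shares of all genes called in these groups were 12%, 11%, 9.88%, 9.92% and 22.2%. List medians lay between -0.21 and -0.03 in these groups.

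In the list of 18 genes named for restraint of the receptor or of its signalling, calls were mostly upward. The list was chosen with earlier results of these data known, so this direction is a description and not a test. Over all genes tested, upward and downward calls were 899 and 988 of 15720 for anisomycin, 807 and 880 of 15379 for TNFα, and 623 and 690 of 13296, 969 and 867 of 18504 and 1806 and 1828 of 16378 for the NaCl times. In the list, with anisomycin 7 of 15 tested were higher than the pool and none lower (median 0.32), with TNFα 4 of 12 (median 0.31), and with NaCl 3 of 12 at 45 min (median 0.19), 4 of 15 at 2 h (median 0.15) and 5 of 13 at 8 h, where 1 was lower (median 0.22). Medians over all genes were between 0 and 0.014 in these groups. Unstressed arms had calls too: 3 of 13 up and 1 down with SB203580 alone and 3 of 15 up in untreated p38α-/- MEFs.

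Errfi1, a feedback inhibitor that binds the receptor's kinase domain, was 1.93 and 1.51 with anisomycin (mean 1.72, SE 0.18, limma adjusted p = 1.2e-05). It was 1.35 and 0.96 at 2 h in NaCl. It was above 0 on all arrays, at 1.28 and 0.42 with SB203580 alone and 0.65 and 0.30 in untreated p38α-/- MEFs, so that a ratio above the pool is not by itself a response to stress. The difference between anisomycin and NaCl at 45 min, 1.20, was at the threshold (limma adjusted p = 0.0498) and did not pass in 28 of the 30 fits that left out 1 array, in which it was 0.988 to 1.40, nor with wild type arrays only (limma adjusted p = 0.138). Lrig1, a membrane protein that promotes degradation of the receptor, was likewise above 0 on all 30 arrays, from 0.41 to 1.95, and had its highest group mean with SB203580 alone, at 1.95 and 1.47.

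Spry2, an inhibitor of Ras signalling, rose early in NaCl on 1 of its 2 probes. On A_52_P368532 it was 1.55 and 1.43 at 45 min in NaCl, 3.17 and 2.98 at 2 h, and 0.80 and 1.45 at 8 h. With SB203580 before NaCl it was 2.58 and 2.71 at 2 h, and in p38α-/- MEFs 2.58 and 2.56. Arrays of the arms without stress lay far lower, at 0.85 and 0.51 with SB203580 alone and 0.39 and 0.31 in untreated p38α-/- MEFs. Over these baselines the probe rose by 1.97 with SB203580 (limma adjusted p = 6.6e-05) and by 2.22 in p38α-/- MEFs (limma adjusted p = 2.3e-05), where 3.39% and 1.61% of all probes were called. It was lower than in wild type NaCl by 0.43 and 0.51 on the log2 scale, and neither difference passed (limma adjusted p = 1 and 0.303). The second probe, A_51_P445153, stayed between -0.08 and 0.54, and on the mean of both the value at 2 h was 1.74. With anisomycin A_52_P368532 was 1.46 and 1.44 (the latter outlier-flagged) in wild type MEFs, 0.70 and 0.55 after SB203580, and 1.13 and 1.00 in p38α-/- MEFs. These differences were not tested on this probe, since 1 wild type array was left out.

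Spry4 was 2.21 and 1.76 with anisomycin on A_52_P204311 (mean 1.98, limma adjusted p = 6.1e-04). With SB203580 before anisomycin it was 0.70 and 0.91, and in p38α-/- MEFs 1.10 and 1.08, so that these groups did not overlap. The differences on this probe, -1.18 and -0.90, did not pass (limma adjusted p = 1 and 0.432), with 0.0122% of probes called in the first. The other probe, A_51_P250422, was below 0 on all arrays and outlier-flagged on both wild type anisomycin arrays, so that the gene-level differences of -2.36 and -1.74 (limma adjusted p = 0.0087 and 0.014) compare different sets of probes. With outlier spots kept they were -0.75 and -0.12 and did not pass.

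Socs4, a member of the SOCS family that targets the receptor for degradation, also rose at 8 h. At the gene level it was 1.10 at 8 h in NaCl and rose by 1.21 from 2 h (SE 0.16, limma adjusted p = 0.00016). The rise was 1.08 on A_51_P471513 and 1.24 on A_51_P165424 (limma adjusted p = 0.0016 and 0.0054). Spry1, named after its values were seen, was 1.06 higher in p38α-/- than in wild type MEFs under NaCl at 2 h (limma adjusted p = 0.015).

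**Figure D5:**
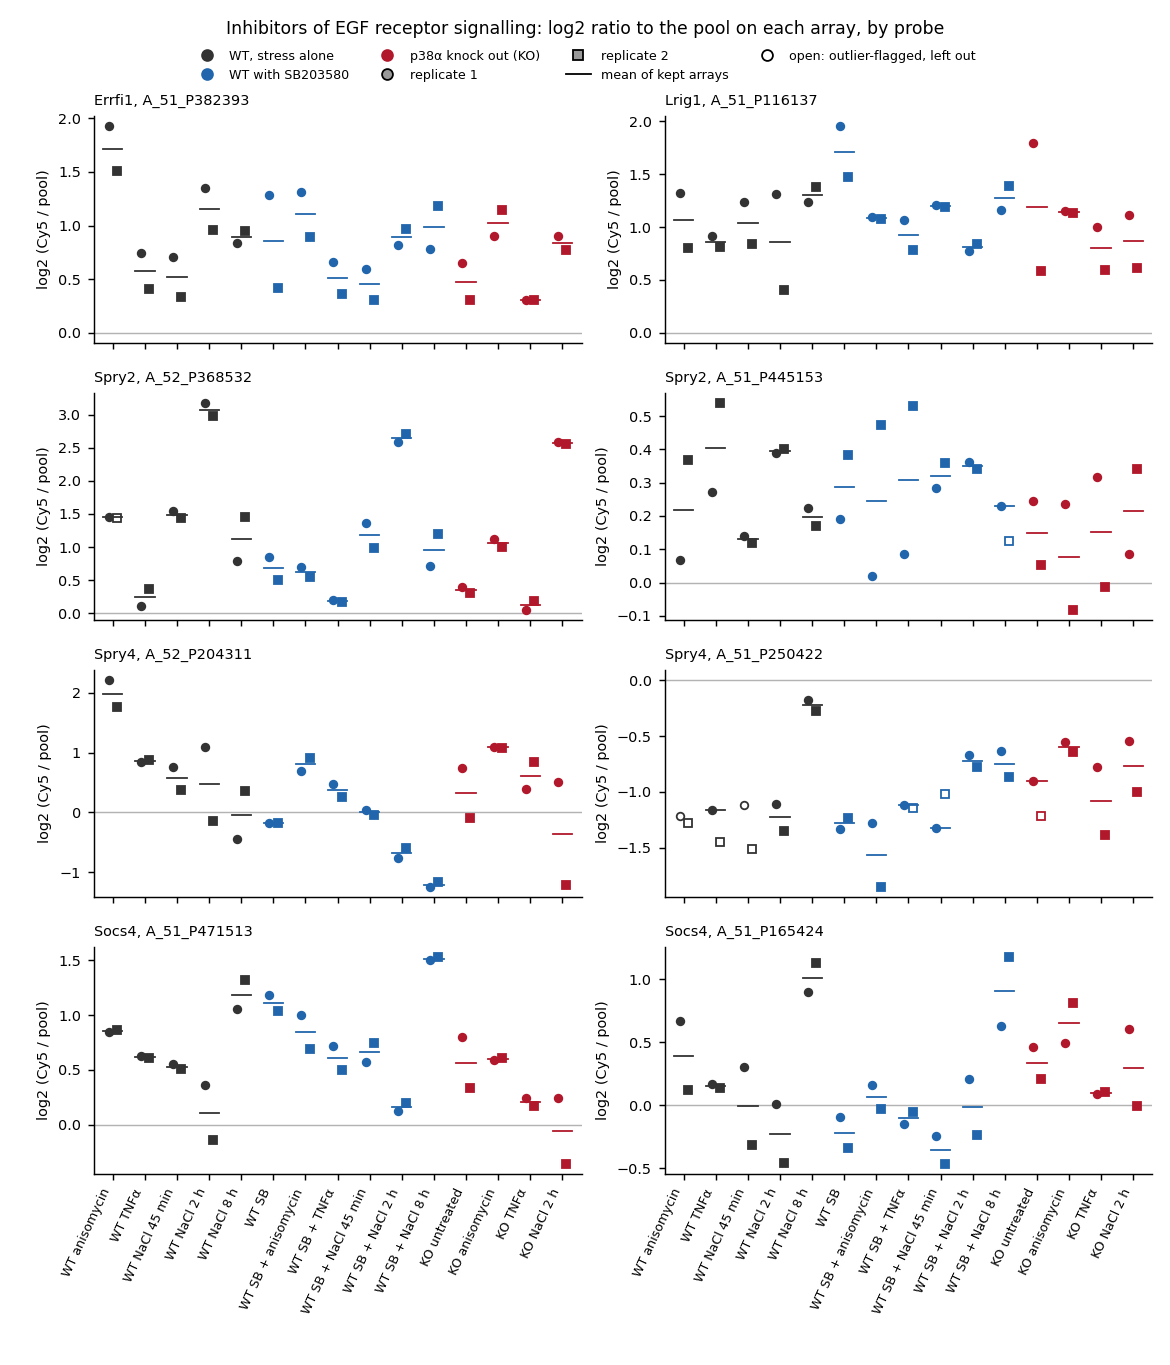
Log2 ratio to the wild type pool of 8 probes of the receptor inhibitors Errfi1, Lrig1, Spry2, Spry4 and Socs4 on each array, each panel with its own vertical range, circles for replicate 1, squares for replicate 2 and open symbols for outlier-flagged spots that were left out. Spry2 on A_52_P368532 is at 2.56 to 3.17 at 2 h in NaCl in all 3 arms, the p38α-/- arm having no other NaCl time, and another Socs4 probe, flagged on 10 arrays, is not drawn.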

How the data were processed

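RNA from 2 independent experiments per condition was amplified and hybridised to 2-colour Agilent mouse arrays. The authors' scanner software (Agilent Feature Extraction, 8.1.1.1 in the file headers and 9.1 in the submitters' processing notes and methods) subtracted background and normalised the dyes, and the deposited log10 ratio per spot was used and turned into log2 by the factor 3.32193. The deposited intensity columns (mean, background and processed signals) served for detection flags and for the normexp alternative. The authors' series matrix values, judged to be log2 from their range, served as another alternative; the methods name VSN for the data of the quality check, and whether these values are those, and their centring, stays unknown.

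Control spots and spots flagged as outliers in either dye were left out, and spots, then probes, were averaged per gene. A fit of 15 group means over 30 arrays (limma 3.58.1 in R 4.3.3; 15 residual degrees of freedom) gave the tests of 48 comparisons, each adjusted over all genes measured on every array it used, so that a group with a missing array was not tested. The number of arrays limits the precision. On simulated ratios 78% of genes changed by 1 log2 unit were called at 8 h of NaCl against the pool, and 58.5% in the contrast of SB203580 at 8 h. The simulated arrays varied independently of one another, and the changed genes had no missing value, unlike some members. These shares therefore do not give the power for the members.

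Replicate numbers were taken to pair arrays within a genotype, because all 55 wild type pairs of groups (r = 0.13 to 0.65) and all 6 p38α-/- pairs (r = 0.15 to 0.45) deviated together, whereas 6 of 44 pairs between genotypes did. The main fit has no block.

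The members and the gene lists were chosen with earlier results of these data known. Besides the members, the text names Mapk14, list genes called with at least a 2-fold mean in a wild type stress group (up to 5 per list), Erbb4, Egf, Epgn, Nrg1, Adam17 and Errfi1, and the 3 genes most alike to Egfr, Areg and Ereg. Single-probe fits, the requirement of every probe, and leaving out arrays for the lists were added after seeing the data. Promoters are from RefSeq GRCm38.p6, and gene symbols are those of the array design, updated for Errfi1 (1300002F13Rik) and Rhbdf2 (Rhbdl6).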

Additional observations from a re-analysis of the deposited data

Results flagged for a closer look

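For no member did the difference of inductions between arms pass the test. For 4 results on genes of the fixed lists it did, in limma with adjustment over all genes. All 4 use the arrays with SB203580 alone as the baseline of the inhibitor arm, and no unstressed wild type array other than the pool stands on the other side.

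The effect of anisomycin on Errfi1 was smaller with SB203580 than without by -1.463 (limma adjusted p = 0.0451); Errfi1 was 1.28 and 0.42 with SB203580 alone. The difference lay between -1.89 and -1.03 when single arrays were left out and did not pass in 19 of 30 such fits. For Lrig1 the difference in 2 h of NaCl was -1.76 (limma adjusted p = 0.0324), with values of 1.95 and 1.47 under SB203580 alone, and it did not pass in 4 of 30 fits (range -2.21 to -1.31).

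The kinase gene Akt1, which carries the signal of PI3 kinase, was named after its values were seen. Its difference was 0.7606 with TNFα (limma adjusted p = 0.0441) and 0.7704 with 2 h of NaCl (limma adjusted p = 0.0290). Akt1 was called below the pool with SB203580 alone (-0.68) and in untreated p38α-/- MEFs (-0.72) as well as under TNFα (-0.65), so that the ratio differed little between stressed and unstressed arms. With single arrays left out the difference under TNFα did not pass in 20 of 30 fits, and that under NaCl did not in 5.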

How the results depend on the processing

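For the members, the calls against the pool went from 11 to 33 with the series matrix values and 32 with outlier spots kept. They went to 21 with a term for the scanning batch and 14 with the replicate block. With the p38α-/- arrays left out 5 passed, and the p38α-/- groups could not be tested. With every probe of a gene required 5 passed, and Erbb2 and Egfr at 8 h of NaCl, with and without SB203580, could not be tested. The number of tests differs between settings, and more comparisons can be tested with outlier spots kept. The shares of all genes called under each setting are not given, so that these counts are not a result about the members. The calls between arms went from 2 to 3 with the block, and to 1 with normexp and with the series matrix. With wild type arrays alone 1 was left, since the call between genotypes could not be tested. The count was 0 on the brightest probe and on spots well above background. It was also 0 with every probe required, where Egfr at 8 h could not be tested. Within arms the single call became 0 with the series matrix. With every probe required that comparison could not be tested. For the difference of inductions, 0 became 1 with normexp, on the brightest probe and with the batch term, 7 with the series matrix and 8 with outlier spots kept. Across times, 5 became 2 on the brightest probe and 3 on spots well above background, and stayed at 5 with the replicate block. With every probe required none of these 5 comparisons could be tested, since an Egfr probe and an Erbb2 probe were outlier-flagged on arrays at 8 h. The lists gave 55 calls, 56 with normexp and 68 with the block. Leaving out single arrays gave 10 to 13, 1 to 2, 1 to 2, 0 to 1, and 3 to 5 calls of members in these 5 families, and 45 to 55 calls in the lists. The Egfr calls at 8 h of NaCl against the pool, 2 h and 45 min, at 8 h over SB203580 alone and in p38α-/- MEFs with NaCl, and the Erbb2 call at 8 h, kept their side in every such fit. Among gene-level calls of members the replicate block changed only those of Egfr between genotypes in NaCl and of Btc, as given above. It also moved calls in the lists and on single probes.

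Some signs turned. Egfr with SB203580 alone, -0.42, was 0.1151 on the brightest probe (also A_52_P106259 with and without the replicate block), 0.03208 on spots well above background and 0.517 on A_51_P392242. On A_52_P5855 Egfr was -0.2852 at 8 h of NaCl with SB203580 and -0.12 in p38α-/- MEFs with NaCl. On A_52_P56471 it was -0.07383 in untreated p38α-/- MEFs and -0.0122 with anisomycin. On A_51_P392242 the change at 8 h over SB203580 alone was -0.11. These single-probe signs were the same with the replicate block. The Egfr call with TNFα in wild type MEFs was lost with normexp (0.23, limma adjusted p = 0.063), and the call between genotypes under anisomycin likewise (0.35, limma adjusted p = 0.171). Beside those given with their results, calls lost without 1 array included Egfr with TNFα without replicate 1 (0.37) or 2 (0.27), and Egfr against the pool with SB203580 alone without replicate 1 (-0.33), with SB203580 and 8 h of NaCl without replicate 2 (0.38), and in p38α-/- MEFs untreated without replicate 2 (0.34), with anisomycin without replicate 2 (0.51) and with TNFα without replicate 1 (0.57). The cause of these changes was not tested.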

Other observations

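Among genes called against the pool in at least 1 group, those whose log2 ratios over the arrays were most like Egfr's were Ptprb (r = 0.884, 30 arrays), Aarsl (r = 0.847, 24 arrays) and Slc1a3 (r = 0.829, 30 arrays). For Areg they were 4930519G04Rik (r = 0.641), Uncx4.1 (r = 0.603) and 4932702D22Rik (r = 0.591), each over 30 arrays. For Ereg they were Fgf15 (r = 0.840, 25 arrays), Myocd (r = 0.825, 28 arrays) and Tbrg4 (r = 0.796, 25 arrays). Hbegf was kept on 9 arrays, too few for such a list. These are descriptions over arrays that share a reference pool and scanning batches, chosen as the highest of 9690, 9691 and 9487 candidate genes.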
